A study of Ciona robusta with 9 samples.

Results

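Bra, Foxa.a and Mnx, 3 transcription factor genes of the ascidian notochord, were followed across all libraries of a study in which Bra was placed under the regulatory DNA of other tissues. They were chosen by identity, with no cut on their values, though earlier results of these data were known. They are the gene models KH.S1404.1 (Bra), KH.C11.313 (Foxa.a) and KH.L128.12 (Mnx), which makes 3 of the 15284 gene models in the deposited tables. The tables carry KH identifiers without symbols, and the RefSeq gene table of the species (21486 genes) matched 0 of them. The names are therefore those under which the genes were chosen, and no coordinates or sequences are given for them.

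The embryos were whole embryos of Ciona robusta, an ascidian with a notochord in its larval tail. Fertilized eggs were electroporated with 1 plasmid, grown in artificial seawater at 21 °C and collected at Hotta stage 19.5, with 400 embryos pooled per sample. Control embryos carried Bra>GFP, which joins Bra regulatory DNA to GFP. Etr1>Bra embryos carried Etr1>Venus-Bra and Tbx6-r.b>Bra embryos carried Tbx6-r.b>Venus-Bra, so that regulatory DNA used for the nervous system or for the tail muscle drove a Venus-Bra fusion. Each group had 3 libraries, and the labels name no mutation, so each embryo's own Bra, Foxa.a and Mnx genes are counted in every group. The design has no embryos in which Etr1 or Tbx6-r.b regulatory DNA drives another protein, and effects of Bra and of that DNA cannot be told apart. Only the control plasmid carries Bra regulatory DNA, and an effect of it on the control values of the 3 genes cannot be told apart either. The replicates are labelled biological, with nothing said of separate fertilizations, and p-values cover only the spread between these samples, which may be technical. The labels do not say what share of the cells took up a plasmid. In pooled whole embryos, a change in the number of cells that express a gene and a change in RNA per cell cannot be told apart.

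Bra encodes a T-box factor that in ascidians is transcribed in the notochord lineage, where it activates genes of notochord differentiation and shape. Foxa.a encodes a forkhead factor of vegetal lineages, among them notochord and endoderm, and it acts upstream of Bra in Ciona. Mnx encodes a homeodomain factor that in vertebrates is known from motor neurons and is also transcribed in the notochord. The series asks how Bra acts together with other regulators in the notochord network, and the comparison here is whether the partner genes changed when Bra was driven elsewhere.

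With Etr1>Bra, transcripts of Bra and of Foxa.a were higher in every library than in any control, as for 6.9% of gene models, on average 1.45-fold and 1.60-fold by group means. Counts of Bra may include reads of the transgene, so a higher count need not be a change of the embryo's own gene. Under Tbx6-r.b>Bra both were again above the control of the same replicate number in every pair, as were 12.8% of gene models, and the groups overlapped. Mnx was below the matching control in 5 of 6 pairs, and 20.3% of gene models were below it in at least 5. None of these differences passed the limma test over all genes without pairing. With the replicate number as a block, Foxa.a and Bra passed with Etr1>Bra, where 3.88% of gene models did. Mnx did not pass with either construct, and none of the 3 genes passed with Tbx6-r.b>Bra.

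Values are normalized read counts, the authors' counts per gene model, which they label library-size normalized. The libraries held 9043181 to 10399304 gene-assigned reads, and the scaling did not follow these totals. Etr1>Bra replicate 1 had the most reads but was scaled up, by 1.057. Tbx6-r.b>Bra replicate 3, with 9261765 reads, was scaled down, by 0.934. As a share of these totals, Mnx in Etr1>Bra replicate 1 lay below control replicate 1 (280 of 10399304 reads against 283 of 9533464). In normalized counts it lay above. Bra and Foxa.a were above control in every pair on both scales. The table with Etr1>Bra and the table with Tbx6-r.b>Bra hold the same control libraries under slightly different scalings, so each construct is compared with control within its own table.

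Bra, the gene carried by both constructs, stood at 359, 352 and 305 normalized counts in control replicates 1, 2 and 3 of the Etr1>Bra table. The Etr1>Bra libraries stood at 481, 430 and 563. The groups did not overlap: the lowest Etr1>Bra library was above the highest control, as it was for 6.9% of the 11514 gene models tested. The log2 change was 0.53 ± 0.15 (standard error, limma on log2 of the normalized count plus 1; 95% interval 0.19 to 0.87, not adjusted for multiple genes). Over all genes it did not pass the threshold of 0.05 (Benjamini-Hochberg adjusted p = 0.287), where 0.139% of gene models did. In the fit blocked on replicate number it passed (limma adjusted p = 0.0436), where 3.88% of gene models did. Blocked edgeR called it too (4.13% of gene models called), as did blocked limma on all 9 libraries (5.01%), while blocked DESeq2 did not (3.17%; adjusted p = 0.0898). The 3 pair changes of Bra were 0.42, 0.29 and 0.88, with an SD of 0.31, so replicate 3 carried the largest. The standard error from these 3 changes alone was 0.18, larger than the 0.13 in the blocked fit, because limma draws the spread of a gene toward that of all genes. The blocked call was lost without replicate 2, where the change was 0.65 (limma adjusted p = 0.249) and 0 of 11514 gene models were called. It was also lost without replicate 3, where the change was 0.36 (limma adjusted p = 0.453).

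With Tbx6-r.b>Bra, Bra stood at 370, 470 and 321 normalized counts, against 355, 348 and 302 in the control libraries of that table. Only replicate 2 lay clearly above the controls, and the groups overlapped. The log2 change was 0.19 ± 0.17, with a 95% interval of −0.18 to 0.57, or 0.88-fold to 1.48-fold, and it did not pass the test (limma adjusted p = 1, and 0.852 with the block). The calls over all genes were 0.533% without the block and 3.9% with it. The change was 0.05 without Tbx6-r.b>Bra replicate 2 and 0.32 without its replicate 3, neither past the test. Reads of the transgene's coding sequence and of the embryo's own Bra gene may be counted together under KH.S1404.1, and the tables do not separate them.

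**Figure D1:**
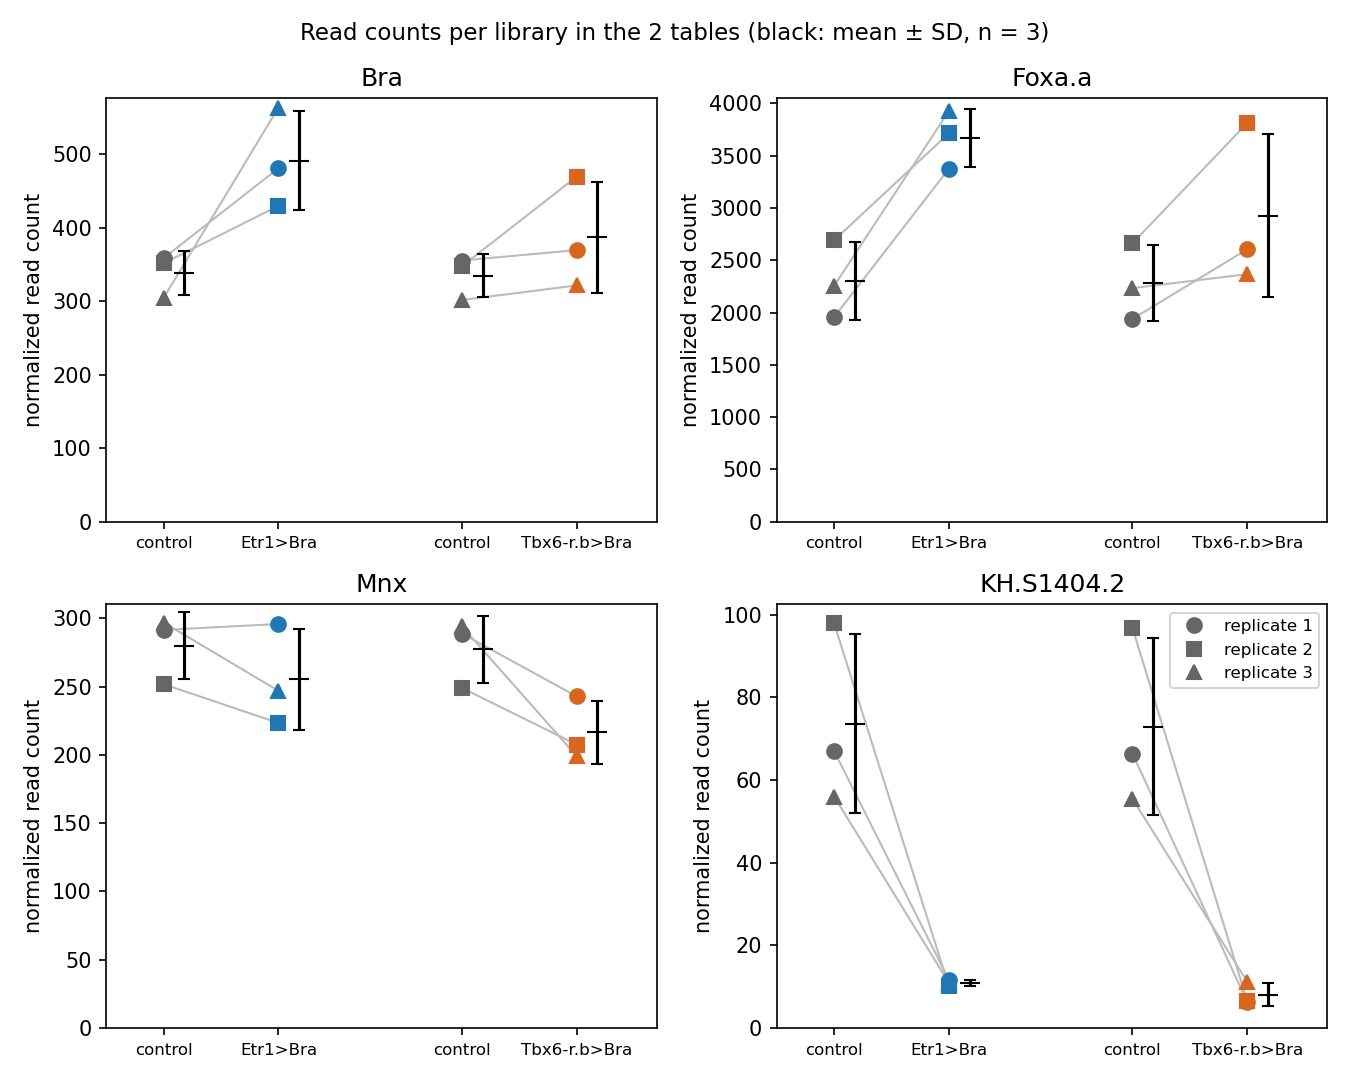
Normalized read counts (linear axis from 0) of Bra, Foxa.a, Mnx and KH.S1404.2 in each library of the Etr1>Bra table (left pair of columns) and of the Tbx6-r.b>Bra table (right pair); grey lines join libraries with the same replicate number, and black marks give mean ± SD with n = 3. The 3 Etr1>Bra libraries lie above the 3 controls for Bra and Foxa.a, while for Mnx the 3 Tbx6-r.b>Bra libraries lie below the controls.

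Foxa.a, the forkhead gene upstream of Bra, had the largest mean log2 change of the trio with Etr1>Bra. It stood at 1957, 2691 and 2256 normalized counts in control replicates 1, 2 and 3 and at 3375, 3715 and 3927 with Etr1>Bra. The groups did not overlap: the lowest Etr1>Bra library was above the highest control, as for 6.9% of the 11514 gene models tested. The log2 change was 0.68 ± 0.14 (95% interval 0.36 to 1.01). Unpaired limma left it above the threshold (adjusted p = 0.129). It was called in the blocked fits, with an adjusted p of 0.00296 in limma, and in the DESeq2 Wald test without the block (adjusted p = 0.00163), which called 2.55% of gene models. The blocked fits called 3.88% of gene models in limma, 4.13% in edgeR, 3.17% in DESeq2 and 5.01% in limma on all 9 libraries. The blocked limma call was lost when replicate 2 was left out (adjusted p = 0.136, log2 change 0.79), a setting in which limma called 0 genes at all. The pair changes were 0.79, 0.46 and 0.80 with an SD of 0.19. Of all gene models tested, 577 (5.01%) had a larger mean log2 change with Etr1>Bra than Foxa.a, and 7.03% had a larger one than Bra.

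With Tbx6-r.b>Bra, Foxa.a stood at 2605, 3813 and 2367 normalized counts against 1939, 2662 and 2234 in control. Replicate 2 was the highest library of its group in both groups, and replicate 2 of the control exceeded replicates 1 and 3 with Tbx6-r.b>Bra, so the groups overlapped. The log2 change was 0.34 ± 0.19 (unadjusted 95% interval −0.08 to 0.76, and 0.09 to 0.60 with the block). It was not past the test without the block (limma adjusted p = 1) or with it (0.154). The pair changes were 0.43, 0.52 and 0.08, and without replicate 3 the blocked change was 0.47 and passed (limma adjusted p = 0.00294). That fit called 482 of 11445 gene models. It had 2 pairs and 1 residual degree of freedom, so its p-value rests mostly on the spread of other genes. In pair 3, 2533 Foxa.a reads stood against 2377 in control, and 38.5% of gene models had a higher change than Foxa.a. In pairs 1 and 2, 8.81% and 8.13% did.

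Mnx, the homeodomain gene, stood at 292, 252 and 297 normalized counts in control and at 296, 223 and 247 with Etr1>Bra. The groups overlapped, and the log2 change was −0.14 ± 0.16, above the threshold in limma (adjusted p = 1, and 0.677 with the block). Its 95% interval ran from 0.71-fold to 1.17-fold of control. With Tbx6-r.b>Bra, Mnx stood at 243, 208 and 199 against 289, 249 and 294. Here the groups did not overlap: the highest Tbx6-r.b>Bra library lay below the lowest control, as it did for 3.1% of the 11445 gene models tested. The log2 change was −0.36 ± 0.16, a level of 0.78-fold with an unadjusted 95% interval of 0.61-fold to 0.99-fold. It did not pass over all genes in limma (adjusted p = 1, and 0.229 with the block). The 3 pair changes were −0.25, −0.26 and −0.56, all below 0, as they were for 12.8% of gene models. In pairs 1, 2 and 3, 17.6%, 22.8% and 2.96% of gene models were lower than Mnx, so only pair 3 set it far from most genes.

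**Figure D2:**
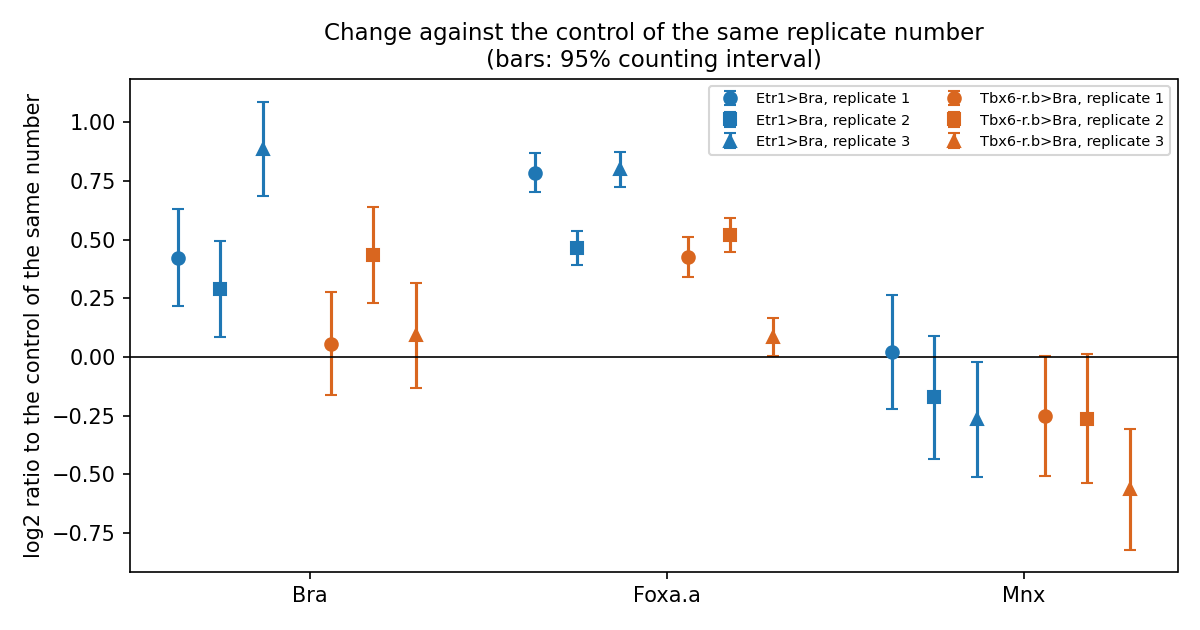
Log2 ratio of each construct library to the control with the same replicate number, for Bra, Foxa.a and Mnx; vertical bars are exact 95% binomial intervals, which cover counting error only. All 6 points of Bra and of Foxa.a lie above 0, and 5 of the 6 points of Mnx lie below it.

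Across both constructs, Bra and Foxa.a were each above the matching control in 6 of 6 pairs. Of 11388 gene models tested in both comparisons, 6.86% were above it in all 6 (17.6% in all 3 Etr1>Bra pairs and 12.8% in all 3 Tbx6-r.b>Bra pairs), and 20.3% were, like Mnx, below it in at least 5. The same control libraries enter both comparisons, so these pairs are not independent. The sizes of the pair changes of Bra and Foxa.a had features in common. With Etr1>Bra both had their largest change in pair 3 (0.88 and 0.80) and their smallest in pair 2 (0.29 and 0.46). In pairs 1, 2 and 3 there, 12%, 14.1% and 7.1% of gene models had a higher change than Bra. For Foxa.a the shares were 4.06%, 8.43% and 7.85%, so against all gene models it stood highest in pair 1. How many gene models share this order of pairs was not counted. With Tbx6-r.b>Bra both had the largest in pair 2 (0.43 and 0.52), but the smallest was in pair 1 for Bra (0.06) and in pair 3 for Foxa.a (0.08).

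Likeness was measured as the root mean square difference between the 6 pair changes of 2 gene models, over 9039 other gene models with a mean of at least 50 normalized counts. Bra and Foxa.a differed by 0.23 on the log2 scale, where the median gene model differed from Foxa.a by 0.62 and from Bra by 0.52. Only 78 gene models (0.863%) were nearer to Foxa.a than Bra was, and 2.2% were nearer to Bra than Foxa.a was. Mnx differed from Bra by 0.67 and from Foxa.a by 0.78, farther than the median gene model in both cases. The gene model nearest to Bra was KH.C12.662 at 0.07, the one nearest to Foxa.a was KH.L108.20 at 0.07, and the one nearest to Mnx was KH.C8.446 at 0.06. These values describe shared libraries and shared controls, and gene models with changes of like size are near each other whatever the genes do. The changes of Bra may also include reads of the transgene.

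**Figure D3:**
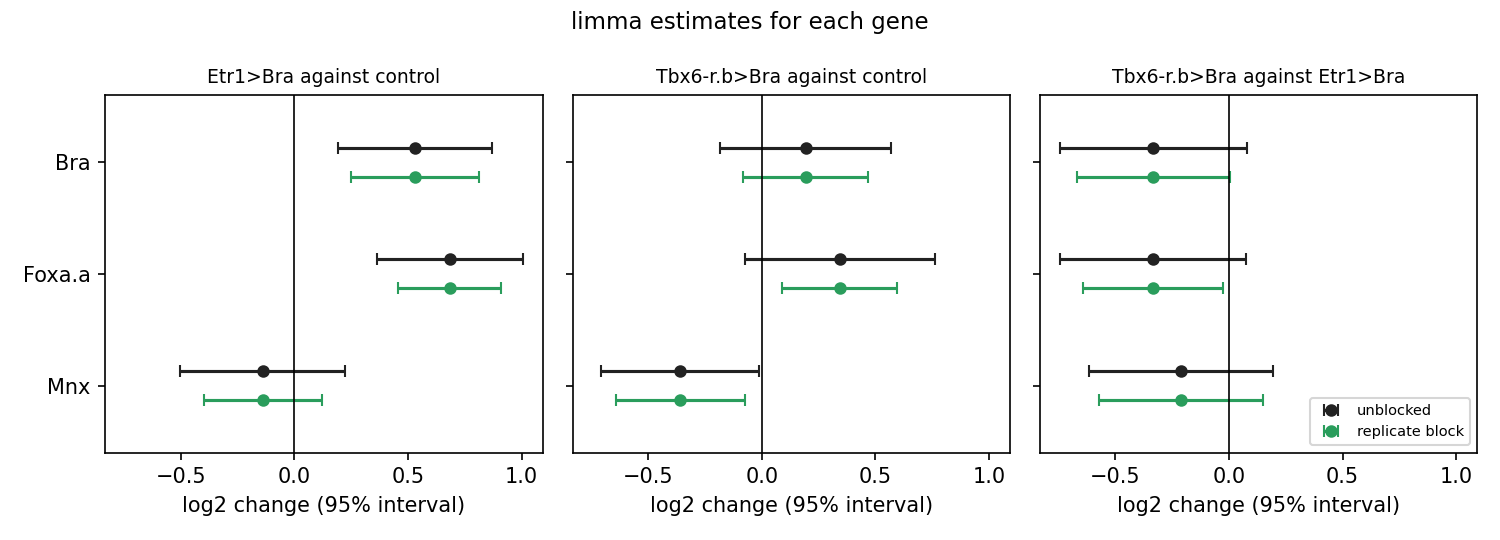
Log2 changes of Bra, Foxa.a and Mnx with unadjusted 95% intervals from limma without the block (black) and with the replicate number as a block (green), for each construct against control and for Tbx6-r.b>Bra against Etr1>Bra. The intervals of Bra and Foxa.a with Etr1>Bra lie above 0 in both fits, and the interval of Mnx with Tbx6-r.b>Bra lies below 0 in both. For Foxa.a, the intervals for Tbx6-r.b>Bra against control and against Etr1>Bra exclude 0 only with the block.

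The level of each gene of the trio was compared directly between the constructs, after rescaling the reads of both constructs together. For Bra, a difference may include reads of the transgene, which were not separated from those of the embryo's own gene. Bra was lower with Tbx6-r.b>Bra than with Etr1>Bra by a log2 difference of −0.33 ± 0.19 (95% interval −0.74 to 0.08). Foxa.a differed by −0.33 ± 0.18 (−0.74 to 0.07, and −0.64 to −0.03 with the block) and Mnx by −0.21 ± 0.18 (−0.62 to 0.19). None passed in limma (adjusted p = 1 for each, and 0.69, 0.532 and 1 with the block). Of all gene models, 0% passed in limma without the block (350 had an unadjusted p under 0.05). Without the block, edgeR called 0 and DESeq2 called 0.339%. With the block, limma called 2.71% and edgeR 2.67%. Bra and Foxa.a were both lower with Tbx6-r.b>Bra in pair 1 (−0.36 and −0.35) and in pair 3 (−0.79 and −0.71), and both slightly higher in pair 2 (0.14 and 0.05). The share of gene models with this order of directions was not counted. Mnx was lower with Tbx6-r.b>Bra in all 3 pairs, as were 10.5% of gene models. A difference between the constructs in Bra, Foxa.a or Mnx was thus not shown, and the intervals include differences of up to 0.60-fold for Bra and Foxa.a.

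**Figure D4:**
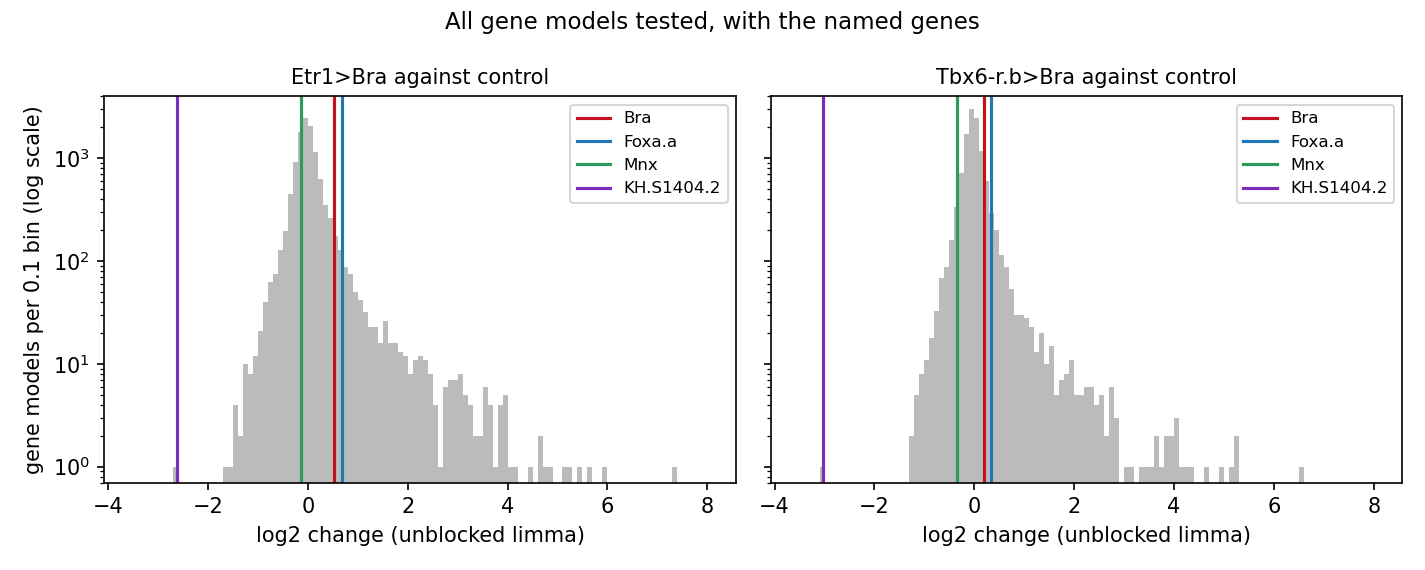
Number of gene models (log axis, bins of 0.1) by log2 change in unblocked limma for Etr1>Bra against control (left) and Tbx6-r.b>Bra against control (right), with vertical lines at Bra, Foxa.a, Mnx and KH.S1404.2. Bra and Foxa.a lie on the upper shoulder, Mnx on the lower side, and KH.S1404.2 is the gene model with the lowest value in both panels.

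Ratios of reads between the genes of the trio within 1 library do not depend on how libraries were scaled. In construct libraries, the Bra reads in these ratios may include those of the transgene. Foxa.a reads per Bra read were 5.46, 7.65 and 7.40 in control. They were 7.02, 8.64 and 6.97 in the Etr1>Bra libraries and 7.05, 8.12 and 7.36 in the Tbx6-r.b>Bra libraries. The 3 groups overlapped, and the log2 ratio was 0.15 higher than control with either construct (exact two-sided permutation p = 0.6 for each). Without control replicate 1, the lowest of the 9, the differences were −0.0044 and −0.0059. Mnx reads per Bra read were 0.81, 0.72 and 0.98 in control. They were 0.615, 0.520 and 0.438 in the Etr1>Bra libraries and 0.657, 0.442 and 0.619 in the Tbx6-r.b>Bra libraries. All 6 construct libraries lay below all 3 controls. The log2 ratio was lower than control for both constructs, with differences of −0.67 (Etr1>Bra) and −0.55 (Tbx6-r.b>Bra). Mnx reads per Foxa.a read were 0.149, 0.0936 and 0.132 in control, 0.0877, 0.0601 and 0.0629 in the Etr1>Bra libraries and 0.0932, 0.0544 and 0.0841 in the Tbx6-r.b>Bra libraries. The groups again did not overlap, with Tbx6-r.b>Bra replicate 1 just under control replicate 2. The log2 differences from control were −0.82 and −0.70. Each of these 4 differences had an exact two-sided permutation p of 0.1, the smallest that 3 against 3 libraries allow, and 0.225 after adjustment over the 9 ratio tests run. These tests do not use the pairing. Within pairs, all 4 differences were below 0 in 3 of 3 pairs. Mnx per Bra differed by −1.15 to −0.40 for Etr1>Bra and by −0.70 to −0.31 for Tbx6-r.b>Bra. Mnx per Foxa.a differed by −1.07 to −0.64 and by −0.78 to −0.65. Of all gene models, 51.8% had a ratio to Bra that was below all controls with Etr1>Bra and 62.7% had such a ratio to Foxa.a, so Mnx shared this with most genes there. With Tbx6-r.b>Bra the shares were 9.04% and 10.6%.

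**Figure D5:**
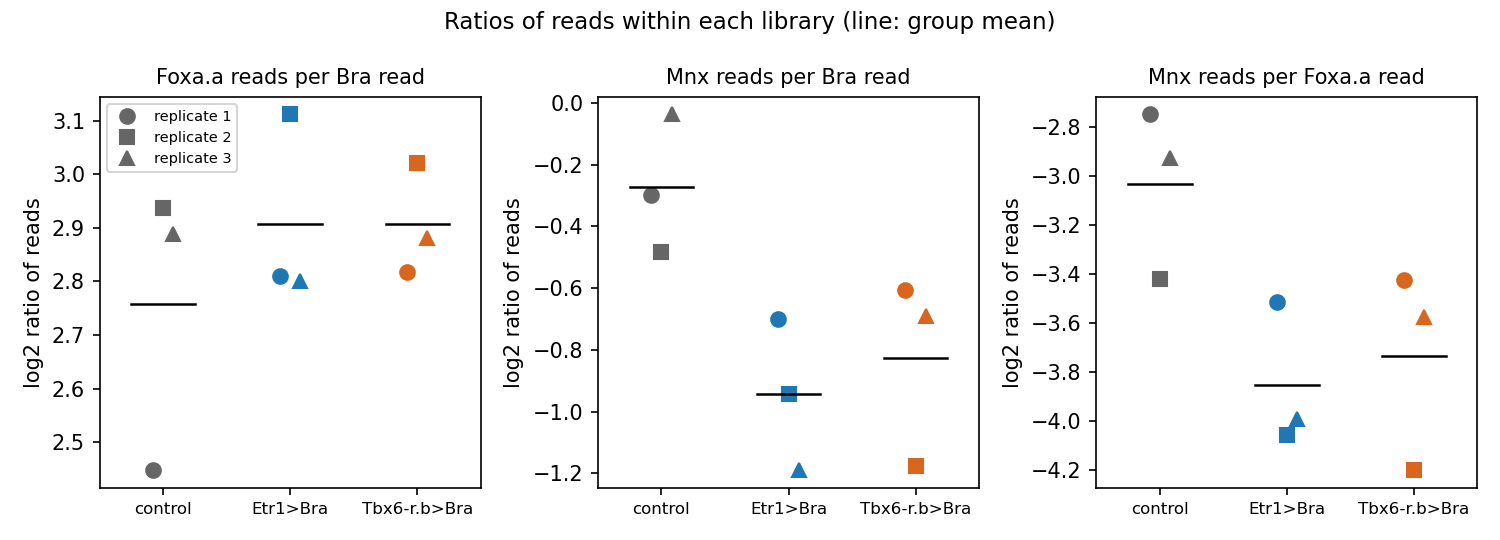
Log2 ratio of recovered reads between genes of the trio in each of the 9 libraries, by group, with a line at the group mean; the vertical axes differ in range and do not start at 0. Foxa.a per Bra overlaps across groups, while Mnx per Bra and Mnx per Foxa.a are lower in all 6 construct libraries than in the 3 controls.

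The spread between replicates was larger than counting error for all 3 genes in each group. The control libraries of Foxa.a varied by 16.05% (SD over mean, n = 3), where counting alone would give about 2.05%. For Bra the control figure was 8.68% against 5.37%, and for Mnx 8.81% against 5.90%. In the construct groups the spread of Bra was further above counting error, at 13.7% against 4.55% for Etr1>Bra and 19.5% against 5.16% for Tbx6-r.b>Bra. Mnx varied by 14.5% against 6.32% and by 10.7% against 6.88%. Foxa.a varied by 7.58% against 1.66% and by 26.5% against 1.88%. In all 9 libraries, Bra had 321 to 568 reads, Mnx 191 to 313 and Foxa.a 1899 to 3959.

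The identifier of Bra is shared in part by KH.S1404.2, a gene model that the sources used here do not name. It stood at 67.0, 97.9 and 56.0 normalized counts in control. The Etr1>Bra libraries held 11.6, 10.1 and 10.9 and the Tbx6-r.b>Bra libraries 6.34, 6.52 and 11.2, all far below every control. Its log2 change was −2.62 ± 0.32 for Etr1>Bra (limma adjusted p = 0.022) and −3.04 ± 0.36 for Tbx6-r.b>Bra (limma adjusted p = 0.00362), the largest decrease among the gene models tested in either comparison. All 4 blocked fits with every library called it with Etr1>Bra (limma, edgeR or DESeq2 adjusted p = 0.000545 or lower). The Etr1>Bra call did not hold on the authors' regularized log2 values (limma adjusted p = 0.152, log2 change −0.54). It also did not hold in unblocked limma without each control in turn (adjusted p 0.0864 to 0.165) or without Etr1>Bra replicate 2 (0.222), nor in blocked limma without both libraries numbered 2 (0.136). In the fits without 1 library the change stayed between −2.79 and −2.39, and those that lost the call called 0 to 5 genes in all. The blocked fit without replicate 2 and the fit on regularized values called 0. With Tbx6-r.b>Bra, KH.S1404.2 was called in 11 of 11 settings with every library. It was also called in 6 of 6 unblocked limma fits without 1 library (adjusted p up to 0.049). The blocked limma fits without 1 replicate number called it in 3 of 3. Bra was above control in every pair. The control plasmid carries Bra regulatory DNA and the others do not. Whether reads from that plasmid fall on KH.S1404.2 was not tested. KH.S1404.3 had 0 reads in all 9 libraries.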

How the data were processed

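The authors deposited 2 tables, 1 per Bra construct, holding that construct's 3 libraries and the 3 controls. Both hold, per the file headers, library-size normalized counts (a signal on a linear scale) and a second block of regularized log2 values. The submitters' processing notes list TopHat2 2.9.8b and DESeq 1.8.1. For the counting program, strand setting and genome build the entry is: not given in the sources used here. Whether reads of overlapping or near-identical genes were split was not tested. All normalized values were whole multiples of 1 step per library (100.0% of values, tolerance 0.01), so read counts were recovered. Control reads were identical in both tables.

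Tests of a construct against control, inside 1 table, used limma 3.58.1 (R 4.3.3, intensity trend) on log2(normalized count + 1), for gene models with a mean of at least 10, with two-sided Benjamini-Hochberg adjusted p under 0.05 as the threshold. Changes of low genes come out too small on this log2 scale. The constructs were compared on reads of both groups rescaled by median of ratios. On the recovered reads, edgeR 4.0.16 (quasi-likelihood) called 13, 66 and 0 genes (Etr1>Bra, Tbx6-r.b>Bra, between constructs) and DESeq2 1.42.0 was run as well. Limma with and without the block, edgeR and DESeq2 without it were tested on simulated data for the Etr1>Bra comparison. The simulated counts had no spread shared by same-numbered libraries, so they cannot check the calls made with the block. Ratios within libraries were compared by exact permutation.

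Same-numbered libraries of different groups deviated together from their group means (correlation 0.48 to 0.72 over all gene models with a mean of at least 10; −0.42 to −0.10 for different numbers), so the numbers were taken to pair the samples. Deviations from a group mean cancel out within the group, so positive values for the same number push those for different numbers below 0. The negative values are therefore not separate evidence of pairing. The blocked fit leaves 2 residual degrees of freedom, and in the comparisons with Tbx6-r.b>Bra limma used 1 spread shared by all genes at each level. Without a replicate number, 2 pairs and 1 residual degree of freedom remain, and the p-value rests mostly on the spread of other genes (prior degrees of freedom 4.22 and 5.18 without replicate 2 between constructs and for Etr1>Bra, 171 for Etr1>Bra without replicate 1, otherwise infinite).

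The genes and lists were chosen with earlier results of these data known, and the within-library ratios were added after the data were seen. The rule for named genes was the 3 genes, all other models of the KH.S1404 identifier and the 2 gene models nearest to each gene, of which 1 is printed because the models have no names. Lists of notochord genes and tissue markers could not be matched to identifiers and were not used.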

Additional observations from a re-analysis of the deposited data

How the results depend on the processing

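No log2 change of Bra, Foxa.a or Mnx against control changed sign under any setting run, fits without 1 library included. Under Etr1>Bra, calls were made by limma with the replicate block (Bra 0.53, Foxa.a 0.68), blocked edgeR (0.53, 0.68) and blocked limma on all 9 libraries (0.53, 0.68). Blocked DESeq2 called Foxa.a (0.69), and DESeq2 without the block called Foxa.a alone (0.68). Over the settings with every library, the adjusted p in limma, edgeR or DESeq2 ran from 0.0404 to 0.387 for Bra, from 3.40e-06 to 0.284 for Foxa.a and from 0.666 to 1 for Mnx. Under Tbx6-r.b>Bra the lowest were 0.849, 0.154 and 0.229. Leaving out 1 library gave Etr1>Bra changes of 0.43 to 0.62 for Bra and 0.57 to 0.80 for Foxa.a, none past the test. With the block and without 1 replicate number they ran from 0.36 to 0.65 and from 0.63 to 0.79. Bra passed only without replicate 1 (0.59, limma adjusted p = 0.000203) and Foxa.a without replicate 1 or 3. Without replicate 1 that fit called 1233 of 11514 gene models, and without replicate 3 it called 343. These are fits of 2 pairs with 1 residual degree of freedom, whose p-values rest mostly on the spread of other genes. For Foxa.a under Tbx6-r.b>Bra the ranges were 0.14 to 0.48, and 0.25 to 0.47 with the block. Without 1 library, Bra ran from 0.05 to 0.32 and Mnx from −0.44 to −0.30 under Tbx6-r.b>Bra, and Mnx from −0.25 to −0.05 under Etr1>Bra. Between constructs, with fits blocked and not, Bra ran from −0.57 to −0.11, Foxa.a from −0.54 to −0.15 and Mnx from −0.30 to −0.10; none passed. The block on all libraries changed no other call of the 3 genes.

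The genes called numbered 16 for Etr1>Bra, 61 for Tbx6-r.b>Bra and 0 between constructs. In the same order they were 447, 446 and 312 in limma with the replicate block, 475, 444 and 307 in blocked edgeR, 365, 226 and 52 in blocked DESeq2, 577, 232 and 133 in blocked limma on 9 libraries, and 294, 140 and 39 in unblocked DESeq2. Regularized log2 values gave 0 for Etr1>Bra (724 with an unadjusted p under 0.05 in limma). They were not used between constructs, whose tables were normalized separately. Without 1 library the counts ran from 0 to 171, 14 to 92 and 0 to 72. With the block and without replicate 1, 2 or 3 they were 1233, 0 and 343 for Etr1>Bra, 264, 296 and 482 for Tbx6-r.b>Bra and 197, 0 and 62 between constructs. The cause was not tested. Without 1 library, the difference in the log2 Foxa.a to Bra ratio, which no test called, ran from −0.0044 to 0.24 for Etr1>Bra, −0.0059 to 0.24 for Tbx6-r.b>Bra and −0.059 to 0.10 between constructs. Between constructs, Mnx to Bra ran from −0.0029 to 0.30 and Mnx to Foxa.a from −0.033 to 0.36. Groups of 3 were not examined for outlying libraries. Counting error is larger for Bra and Mnx than for Foxa.a.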
